A study of Mus musculus with 2 samples.

Results

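Complex I of the mitochondrial respiratory chain was described here through the genes that encode its nuclear subunits and its assembly factors. The genes were taken by name, as all entries of the deposited gene table whose symbol begins with Nduf or mt-Nd. These were 42 of 12557 entries, with 41 of 12446 symbols, because Ndufb8 has 2 entries. Of the 41 genes, 37 encode structural subunits and 4 encode assembly factors (Ndufaf1 to Ndufaf4). The number of mitochondrially encoded mt-Nd genes found by the rule was 0, so those subunits were not analysed here. Every one of the 41 genes reached 1 RPKM, a read count divided by exon length and library size, in one library or both, as did every entry of the table, and 31 of the 37 structural subunits reached 5 RPKM.

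Complex I takes electrons from NADH, passes them along a chain of iron-sulphur clusters to ubiquinone and pumps protons across the inner mitochondrial membrane. Its matrix arm holds the N module, which oxidises NADH, and the Q module, which reduces ubiquinone, while its membrane arm holds the proton pumps. The core subunits carry out catalysis, the accessory subunits surround them, and assembly factors help to build the enzyme without being part of it. Adult heart muscle is rich in this enzyme and makes most of its ATP by respiration.

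The values come from RNA sequencing of sorted cells of the embryonic mouse sinoatrial node, the tissue that paces the heart. All embryos were of strain ICR, with Hcn4-CreERT2, a recombinase that tamoxifen activates in cells expressing the pacemaker channel gene Hcn4, and the red reporter Rosa-tdTomato. The mutant group was Isl1 f/f and the control group Isl1 +/+, so both carried the recombinase and the reporter and both received tamoxifen, at E10.5, with harvest 36 hours later (embryonic day 12.5 in the sample labels). Each group is 1 library from pooled embryos, of cells left after removal of CD31-positive endothelial cells and sorting for tdTomato. With 1 library per group there is no replicate error and no test, and every comparison below is between these libraries.

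The libraries rested on 110117186 reads (control) and 119018888 reads (mutant). Isl1, the LIM-homeodomain gene that was targeted (chromosome 13, 117088478 to 117099896, mm9), measured 7.65 RPKM (control) and 1.52 RPKM (mutant), a ratio of 0.199 (95% counting interval 0.180 to 0.221). The node markers Hcn4, Tbx3 and Shox2 were present at 1.99, 9.90 and 14.8 RPKM in the control library and at 0.541, 3.45 and 8.64 RPKM in the mutant library. Intervals are exact conditional binomial 95% intervals from the reads behind each pair of values. They cover counting error only, with every read taken as independent, and hold no variation between samples. PCR copies are not independent molecules, so the intervals may be too narrow even for counting error.

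The promoters of the structural subunits with the highest ratios of mutant to control, Ndufa5 and Ndufa7, and of the only structural subunit with a ratio below 1, Ndufb2, are shown first, because these genes mark the ends of the group. The gene next to Ndufb2 in that order, Ndufs1, is named only. The windows are from RefSeq on GRCm38.p6, from 250 bases before the transcript start to 50 bases after it, at the most upstream listed start. Capitals mark matches, on either strand, to motifs of regulators of respiratory genes: NRF1 (GCGC, any base, then TGCGC), ETS factors such as GABP (CCGGAAG), YY1 (AAGATGGC), ERR (AAGGTCA) and the core of the hypoxia response element (ACGTG).
Ndufa5, chr6:24527641-24527940, minus strand: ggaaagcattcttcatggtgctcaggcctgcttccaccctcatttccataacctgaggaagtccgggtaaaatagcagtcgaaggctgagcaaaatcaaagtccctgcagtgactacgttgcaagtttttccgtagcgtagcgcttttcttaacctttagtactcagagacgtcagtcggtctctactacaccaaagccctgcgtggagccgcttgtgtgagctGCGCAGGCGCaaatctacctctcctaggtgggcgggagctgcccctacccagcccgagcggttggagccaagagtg
Ndufa7, chr17:33824322-33824621, plus strand: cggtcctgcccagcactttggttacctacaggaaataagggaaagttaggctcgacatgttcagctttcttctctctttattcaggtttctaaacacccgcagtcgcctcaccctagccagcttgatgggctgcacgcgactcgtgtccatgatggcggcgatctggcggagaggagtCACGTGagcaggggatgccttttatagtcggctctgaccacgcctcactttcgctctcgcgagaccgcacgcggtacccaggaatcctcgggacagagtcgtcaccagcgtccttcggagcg
Ndufb2, chr6:39592315-39592614, plus strand: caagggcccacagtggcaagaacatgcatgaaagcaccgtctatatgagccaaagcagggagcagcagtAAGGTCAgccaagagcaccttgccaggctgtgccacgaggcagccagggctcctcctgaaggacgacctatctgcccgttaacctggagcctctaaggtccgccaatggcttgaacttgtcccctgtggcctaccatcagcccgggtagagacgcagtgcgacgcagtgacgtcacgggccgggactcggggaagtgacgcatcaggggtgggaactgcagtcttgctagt
The capitals in Ndufa5 are 1 NRF1 match, those in Ndufa7 are the hypoxia core read on both strands, where the matches overlap each other, and those in Ndufb2 are 1 ERR match. No match of one motif overlapped a match of another in these windows.

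RefSeq windows were matched for 33 of the 37 structural subunits. The NRF1 motif was in 7 of them (21.2%), beside 4.82% of 27025 promoters of the same length, and the YY1 motif in 7 (21.2%), beside 2.87%. The ETS motif was in 4 (12.1%, beside 9.14% of all) and the ERR motif in 3 (9.09%, beside 4.65%). The hypoxia core was in 6 (18.2%), beside 19.6% of all promoters. The windows of the subunits also held more G and C, with a median of 59.0% beside 52.7% for all promoters. These are matches of letters and were not tested as binding sites.

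The nuclear structural subunits were almost uniformly a little higher in the mutant library. Of 37 subunits, 36 were higher and 1, Ndufb2, was lower, while 32.9% of all 12446 genes were higher and 67.1% lower. At least 25% higher were 16 of the 37, beside 11.5% of all genes. Of the subunits, 1, Ndufa5, was at least 1.5-fold higher (4.33% of all genes) and 0 were at least 2-fold higher (1.12% of all genes). These counts and the medians are on the scale log2((mutant RPKM + 1)/(control RPKM + 1)), which understates the change of low genes, while the ratios given for single genes carry no pseudocount. On this scale the median difference of the 37 subunits was 0.30, with an interquartile range of 0.24 to 0.39, beside a median of -0.18 for all genes. Summed over the 37 genes, the level was 1576 RPKM (control) and 1925 RPKM (mutant), 1.22-fold higher.

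**Figure D1:**
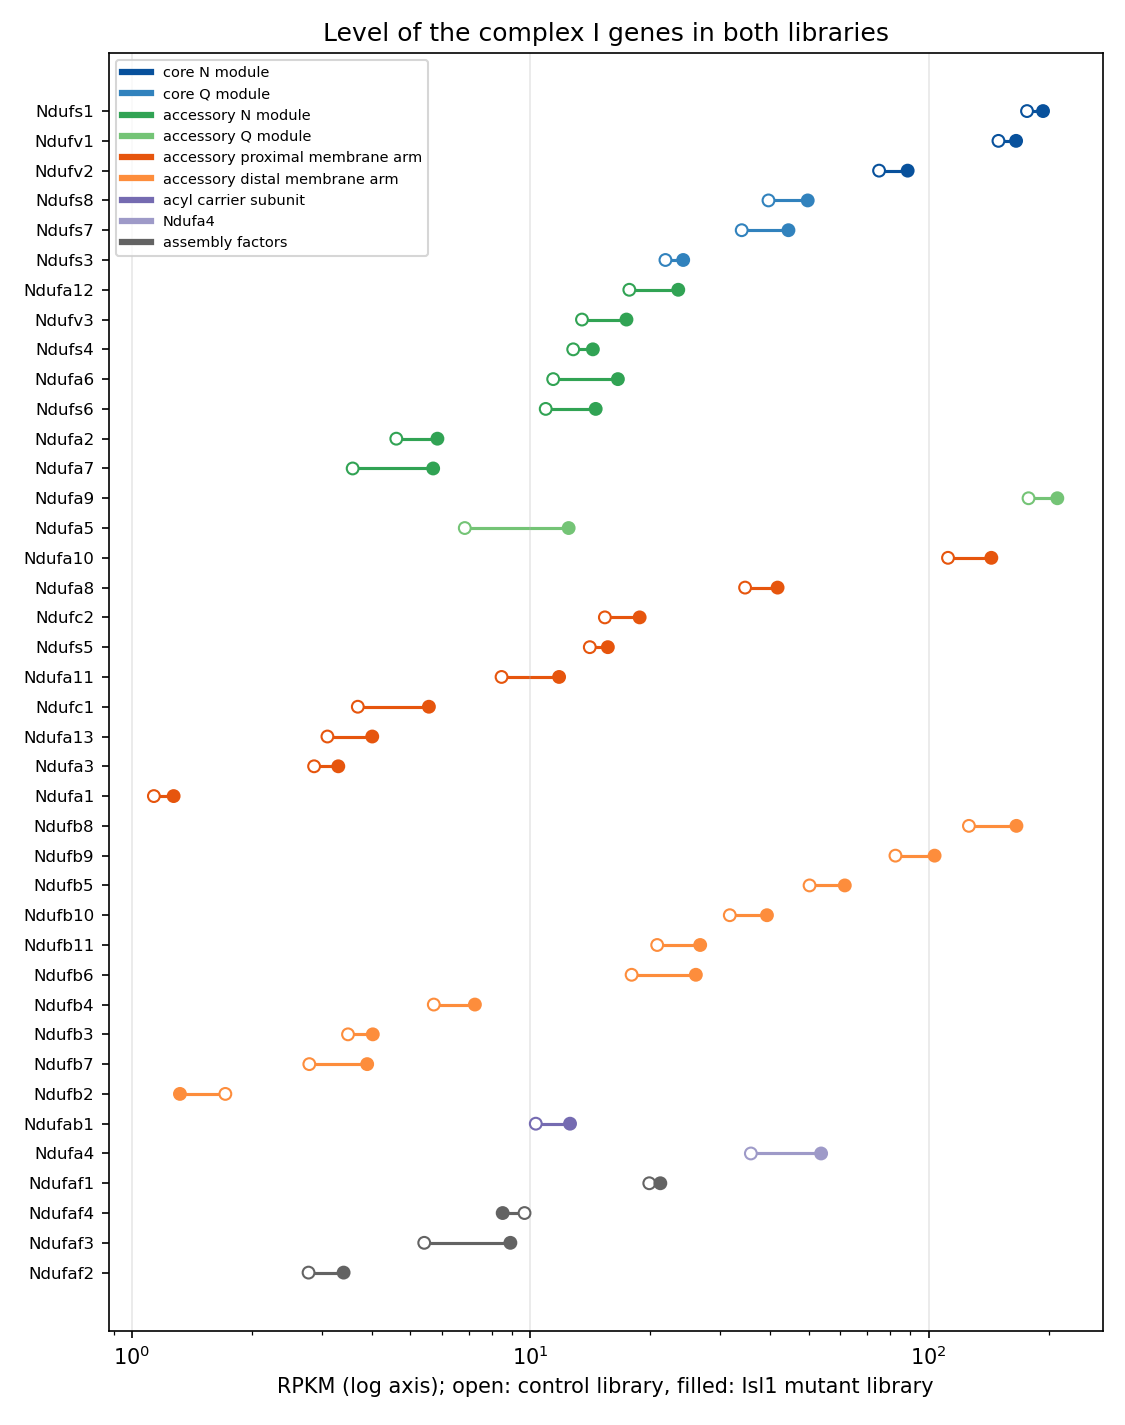
RPKM of 40 complex I genes on a log axis, with an open circle for the control library and a filled circle for the Isl1 mutant library, coloured by module and ordered by control level within it. The filled circle lies to the right of the open one except in Ndufb2 (1.72 to 1.32 RPKM) and in the assembly factor Ndufaf4 (9.67 to 8.53 RPKM).

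Markers of several cell types also differed between the libraries. Of 10 cardiac muscle markers, 9 were higher in the mutant library, with a median of 0.29 and a summed level of 9378 RPKM (control) and 11959 RPKM (mutant). The atrial light chain gene Myl7 stood at 1960 and 3010 RPKM and the troponin gene Tnni1 at 1234 and 1717 RPKM. Erythroid markers were lower in 11 of 11, with a summed level of 416 RPKM (control) and 71.9 RPKM (mutant). Lower too were 9 of 9 markers of macrophages and blood cells (47.0 to 8.68 RPKM), 10 of 11 fibroblast markers (753 to 514 RPKM) and 6 of 7 endothelial markers (21.97 to 11.4 RPKM). Examples are the globin genes Hbb-y (178 to 24.9 RPKM) and Hba-a1 (78.3 to 13.1 RPKM), and the leukocyte genes Laptm5 (23.2 to 2.99 RPKM) and Csf1r (6.39 to 1.16 RPKM). Others are the fibroblast receptor genes Pdgfra (9.53 to 1.45 RPKM) and Pdgfrb (6.73 to 2.49 RPKM) and the endothelial receptor genes Kdr (7.40 to 3.21 RPKM) and Tek (6.24 to 3.97 RPKM). Epicardial markers were higher in 3 of 6, among them Krt19 (9.77 to 28.8 RPKM) and Upk1b (11.7 to 16.2 RPKM). Their sum was 83.2 RPKM (control) and 102 RPKM (mutant), and without Krt19 it was 73.4 and 73.2 RPKM. Neural and glial markers were higher in 2 of 5, near the share of all genes (20.05 to 17.8 RPKM in sum). Among them Nefl was higher (3.36 to 7.65 RPKM) and Ednrb lower (10.9 to 6.77 RPKM). The part of these cells in the complex I values was not tested, and more muscle cells in a pool cannot be told apart from more complex I RNA per muscle cell. When both libraries were scaled to equal the median of the cardiac markers, which moves every log2 ratio without a pseudocount down by 0.29, the median of the subunits was 0.037. On that scale 23 of the 37 subunits were higher, 1 was at least 25% higher and the summed level had a ratio of 0.9997. The medians of the modules on that scale were -0.14 (core N), 0.014 (core Q), 0.11 (accessory N), 0.23 (accessory Q), 0.0011 (proximal arm) and 0.042 (distal arm).

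The core subunits of the N module oxidise NADH, and all 3 were abundant and less than 20% higher in the mutant library. Ndufv1, which binds the FMN cofactor and the NADH (chromosome 19, 4007497 to 4012806, mm9), measured 149.8 RPKM (control) and 166 RPKM (mutant), 1.11-fold higher (interval 1.09 to 1.13). Ndufs1, which carries iron-sulphur clusters (chromosome 1, 63190170 to 63223396), stood at 177 and 194 RPKM, 1.097-fold higher (1.087 to 1.107). Ndufv2, another iron-sulphur subunit, stood at 75.1 and 88.6 RPKM, 1.18-fold higher (1.15 to 1.21). All 3 intervals lie above 1, and the median of the 3 log2 differences, 0.15, was the lowest of any module with more than 1 gene.

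In the core of the Q module, 4 of 4 subunits were higher, with a median of 0.30. Ndufs7, a subunit at the ubiquinone site, stood at 33.9 and 44.5 RPKM, 1.31-fold higher (1.27 to 1.35), the largest ratio among the 7 core subunits. Ndufs8, an iron-sulphur subunit, stood at 39.6 and 49.7 RPKM (1.254-fold) and Ndufs3 at 21.8 and 24.2 RPKM (1.11-fold). Over the 7 core subunits together the sum went from 732 RPKM in the control to 852 RPKM in the mutant library, 1.16-fold higher, while over the 29 accessory subunits it went from 808 to 1019 RPKM, 1.26-fold higher. The difference between core and accessory subunits was not tested.

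The accessory subunits of the matrix arm included the highest ratios. Ndufa5, an accessory subunit of the Q module (chromosome 6, 24468666 to 24478013, mm9), measured 6.85 RPKM (control) and 12.5 RPKM (mutant), 1.82-fold higher (1.61 to 2.07, from at least 371 and 731 reads). This was the highest ratio of the 41 genes. Ndufa9, the other accessory Q subunit in the list, is far more abundant, at 178 and 210.5 RPKM, and was 1.18-fold higher (1.16 to 1.20). The intervals of Ndufa5 and Ndufa9 do not overlap. Because Ndufa5 is the highest ratio of the group, no conclusion is drawn from that.

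In the accessory N module 7 of 7 subunits were higher, with a median of 0.39, and 5 were at least 25% higher. Ndufa7 (chromosome 17, 33961536 to 33975261) stood at 3.58 and 5.70 RPKM, 1.59-fold higher (1.35 to 1.88). Ndufa6, a LYR-motif protein that binds the acyl carrier subunit, stood at 11.4 and 16.6 RPKM, 1.45-fold higher (1.33 to 1.59). Ndufs6, a zinc-binding subunit, Ndufa12 and Ndufv3 were higher by ratios of 1.33 (10.9 and 14.6 RPKM), 1.33 (17.7 and 23.5 RPKM) and 1.29 (13.5 and 17.4 RPKM). The intervals of Ndufs6, Ndufa12 and Ndufv3 overlap. Ndufa2 stood at 4.61 and 5.85 RPKM (1.27-fold, interval 1.08 to 1.49). Ndufs4, whose loss in people causes Leigh syndrome and whose knockout mouse is a model of that disease, differed least in this module, at 12.8 and 14.4 RPKM, 1.12-fold higher (1.06 to 1.19).

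In the proximal membrane arm, which joins the matrix arm, 9 of 9 accessory subunits were higher, with a median of 0.27. Ndufa10, the most abundant of them, stood at 111.9 RPKM (control) and 143.7 RPKM (mutant), 1.28-fold higher (1.27 to 1.30). Ndufc1 stood at 3.69 and 5.57 RPKM, 1.51-fold higher (1.36 to 1.67), and Ndufa11 at 8.47 and 11.8 RPKM, 1.39-fold higher (1.34 to 1.45). Ndufc1 and Ndufa11 had the highest ratios of these 9. Ndufa13, also known as GRIM-19, was 1.30-fold higher (3.10 to 4.01 RPKM), Ndufc2 1.22-fold (15.4 to 18.8 RPKM) and Ndufa8 1.21-fold (34.6 to 41.8 RPKM). Ndufs5 stood at 14.1 and 15.7 RPKM, 1.11-fold higher (1.009 to 1.22). Ndufa3 (2.87 and 3.30 RPKM) and Ndufa1 (1.14 and 1.27 RPKM, from at least 52 and 63 reads) have intervals that include 1, of 0.972 to 1.36 and 0.764 to 1.65, so a difference was not detectable at this depth.

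**Figure D2:**
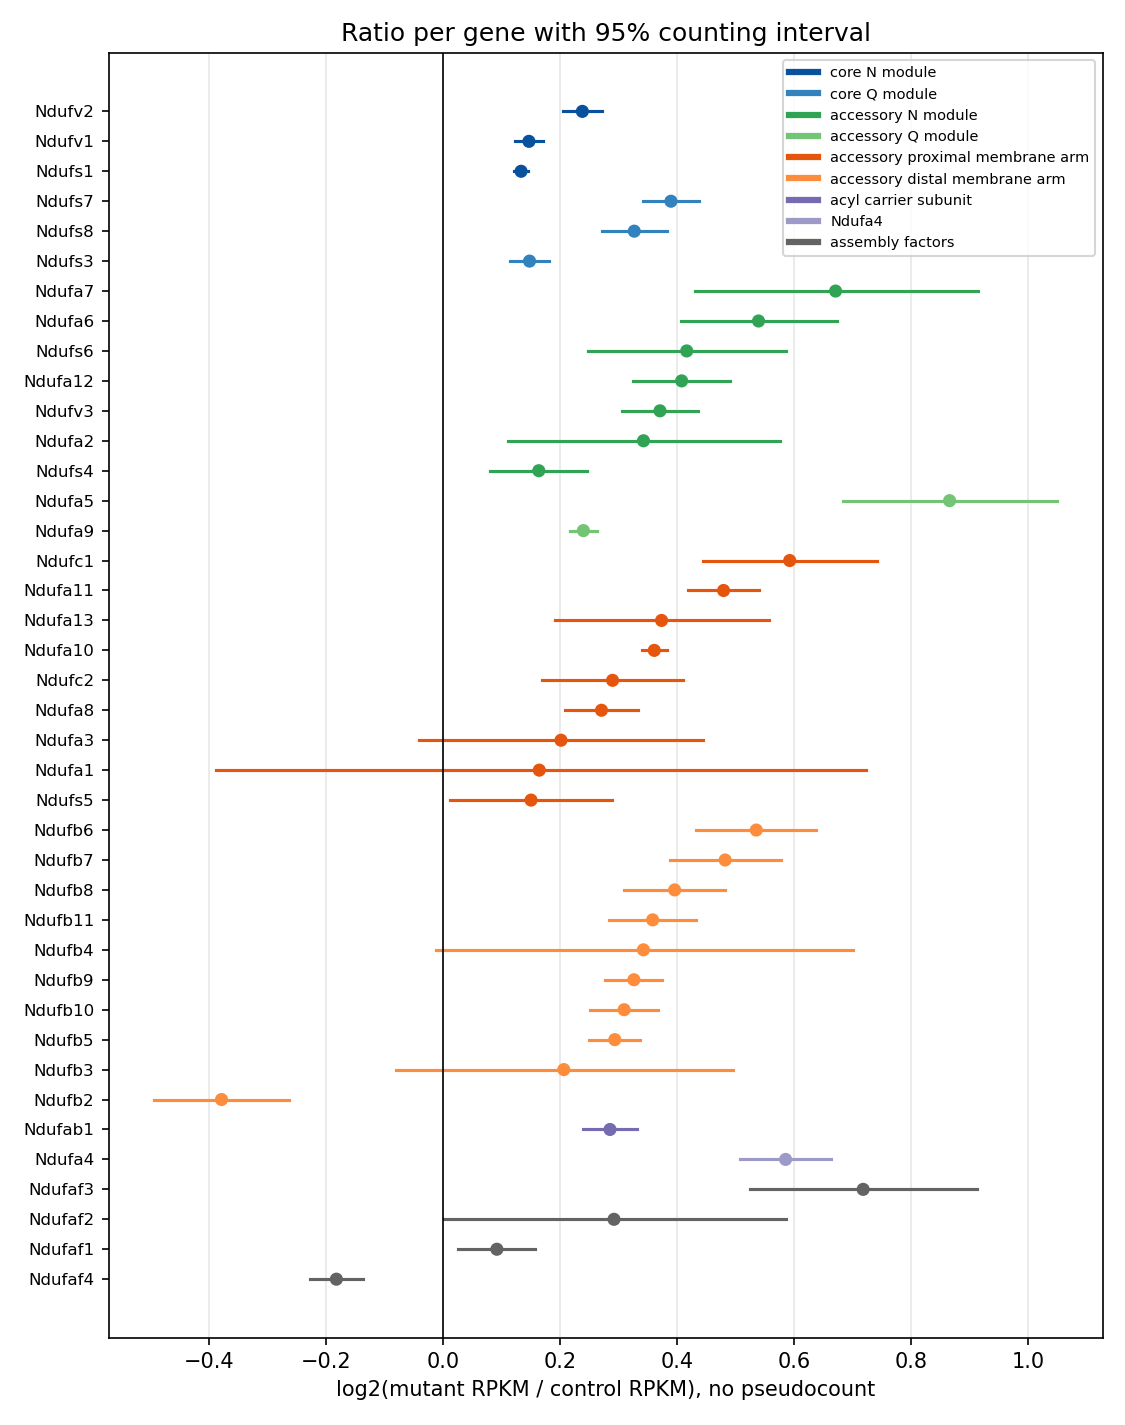
Log2 ratio of mutant to control RPKM, with no pseudocount, for 40 complex I genes, with lines for the 95% counting interval and colours for the module. The intervals of 31 of the 36 structural subunits drawn lie above 0, those of 4 (Ndufa1, Ndufa3, Ndufb3 and Ndufb4) include 0, and that of Ndufb2 lies below 0. Of 12339 genes with recovered reads, 24.6% had an interval wholly above no difference and 57.2% wholly below it.

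In the distal membrane arm 9 of 10 accessory subunits were higher, with a median of 0.31. Ndufb8 has 2 entries that overlap each other, at 126 and 166 RPKM (1.32-fold higher) and at 30.99 and 40.4 RPKM (1.30-fold higher). The first, with the higher mean, was used in the counts and sums. It rests on a recovered length of 133 bases and a transcript of 225 bases and also overlaps Sec31b, so its level is uncertain. Without Ndufb8, 35 of 36 subunits were higher and the sum was 1450 RPKM (control) and 1759 RPKM (mutant), 1.21-fold higher. Ndufb9, a LYR-motif protein like Ndufa6, stood at 82.6 and 103.5 RPKM (1.254-fold), and Ndufb5 at 50.3 and 61.6 RPKM (1.23-fold). Ndufb6 had the highest ratio of this arm, 1.45 (1.35 to 1.56), at 18.0 and 26.0 RPKM. Ndufb7 stood at 2.79 and 3.90 RPKM (1.40-fold), Ndufb11, an X-linked subunit, at 20.8 and 26.7 RPKM (1.28-fold), and Ndufb10 at 31.7 and 39.3 RPKM (1.24-fold). These genes cover a wide range of levels within a narrow range of ratios. Ndufb4 (5.73 and 7.26 RPKM, interval 0.992 to 1.63) and Ndufb3 (3.49 and 4.02 RPKM, interval 0.945 to 1.41) have intervals that include 1. For Ndufb4 these rest on a recovered length of 184 bases, shorter than its transcript of 971 bases, so its read numbers may be too low and its interval too wide.

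Ndufb2 (chromosome 6, 39542573 to 39553381, mm9) was the exception, at 1.72 RPKM (control) and 1.32 RPKM (mutant), a ratio of 0.769 (0.710 to 0.833). The length recovered from its values is 7124 bases, while its principal transcript has 455 bases. It overlaps Braf and Gm16272 on the opposite strand, at ratios of 0.585 and 0.588, and Adck2 on its own strand, at 1.16. The sources used here do not say that counting used strand, so reads of Ndufb2 and of these genes cannot be told apart. In all, 9 of the 37 subunits overlap another gene of the table, and the 28 without an overlap were higher in 28 cases. The exon length used was at least 3 times the principal transcript in 4 subunits, Ndufb2, Ndufb7, Ndufa11 and Ndufs3. In 9 of the 42 entries the recovered length was also longer than all annotated exons of the gene together, so what was counted in those genes is uncertain.

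Ndufab1 and Ndufa4 have roles beyond complex I. Ndufab1, the mitochondrial acyl carrier protein that also serves fatty acid synthesis, stood at 10.3 and 12.6 RPKM, 1.22-fold higher (1.18 to 1.26). Ndufa4 was first described in complex I and is now placed in cytochrome c oxidase. It stood at 35.8 RPKM (control) and 53.7 RPKM (mutant), 1.501-fold higher (1.42 to 1.58). Without Ndufa4 the counts were 35 of 36 higher and the median was 0.29. RefSeq also lists genes named Ndufb4b, Ndufb4c, Ndufs6b and Ndufa11b, and how reads were divided between such copies and Ndufb4, Ndufs6 and Ndufa11 is uncertain.

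At 5 RPKM or more in either library 31 of 31 subunits were higher, beside 38.1% of 6343 genes. Ndufa2, Ndufa7 and Ndufc1 reached that floor only in the mutant library, and Ndufb2 in neither. The floor itself therefore shaped this count, and no conclusion is drawn from it. Subunits at high and low levels had like medians. The 16 subunits at 20 RPKM or more in the control library were higher in 16 cases with a median of 0.30, and the 21 below it in 20 cases with a median of 0.30. Across the 37 subunits the log2 difference and the log2 control level had a Pearson r of 0.038 and a Spearman rho of -0.040, points that share both libraries. Among all genes, abundant genes and short transcripts were more often higher than the rest. Where the higher library reached 100 RPKM, 63.1% of 328 genes were higher, with a median of 0.094. At that level 7 of 7 subunits were higher. Of these, Ndufb9 reached 100 RPKM only in the mutant library, and Ndufb8 only in its entry with the shorter transcript, whose level is uncertain. Protein-coding genes with a principal transcript under 1000 bases were higher in 57.4% of 711 cases, beside 22 of 23 such subunits. With the median of 10 level by 5 length bins subtracted, a correction chosen after seeing the data, 36 of 37 subunits were higher and the median was 0.31.

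Levels per length differed widely between subunits of the same enzyme. In the control library Ndufa9 stood at 178 RPKM and Ndufa1 lowest, at 1.14 RPKM. Subunits with transcripts under 800 bases (18 genes) had a median of 11.2 RPKM in the control library, those from 800 to under 1500 bases (11 genes) a median of 20.8 RPKM and those of 1500 bases or more (8 genes) a median of 93.5 RPKM. In the mutant library the medians were 15.1, 24.2 and 116 RPKM, in the same order. Over the 37 genes, log2 transcript length and log2 control level had a Pearson r of 0.52 and a Spearman rho of 0.49, while over 11032 protein-coding genes the values were -0.19 and -0.21. With the recovered exon length in place of the transcript length, r was 0.20 and rho 0.26 over the 37 genes. Transcript lengths are those of GENCODE release M21, and the Ndufb8 entry with the longer transcript was used here. What sets the low values of short subunit genes was not tested.

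**Figure D3:**
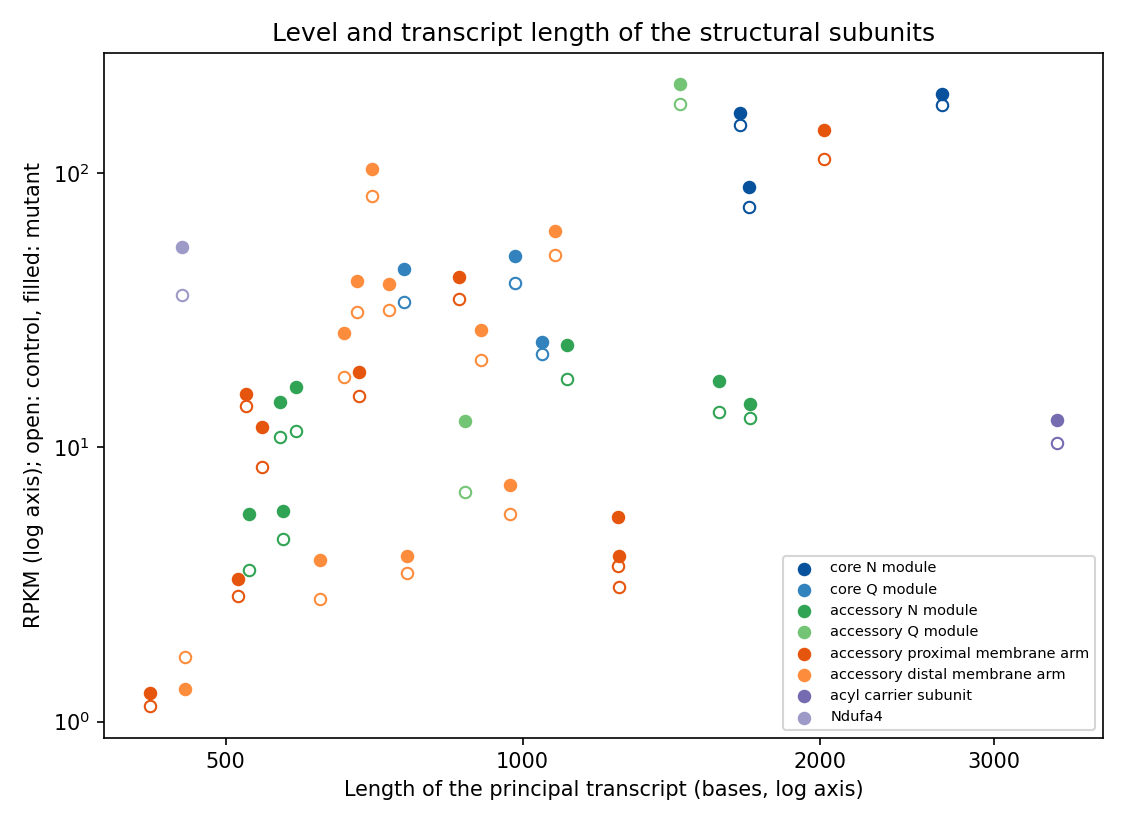
Level of 36 structural subunits against the length of their principal transcript, both on log axes, with open circles for the control library and filled circles for the mutant library. Long transcripts such as Ndufs1 and Ndufa10 lie above 100 RPKM, while Ndufa1 and Ndufb2 lie near 1 RPKM, the longest transcript, Ndufab1, lies at 10.3 RPKM (control), and the filled circle is above the open one in 35 of 36 genes.

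Of the 4 assembly factors found by symbol, 3 were higher and 1 lower, with a median log2 difference of 0.15. At least 25% higher was 1 of the 4. Of all genes 32.9% were higher and 11.5% at least 25% higher. Ndufaf3, which helps to build the Q module (chromosome 9, 108468197 to 108469673, mm9), measured 5.42 RPKM (control) and 8.91 RPKM (mutant), 1.65-fold higher (1.44 to 1.88). Ndufaf4, its partner in that step in human cells (chromosome 4, 24825230 to 24832148), went the other way, at 9.67 and 8.53 RPKM, a ratio of 0.881 (0.854 to 0.909). Ndufaf2, a late factor related in sequence to Ndufa12, stood at 2.78 and 3.40 RPKM, with an interval of 1.001 to 1.501. Ndufaf1, which acts in building the membrane arm, stood at 19.9 and 21.2 RPKM, 1.07-fold higher (1.02 to 1.12). The recovered lengths of Ndufaf4 (7502 bases) and Ndufaf1 (1587 bases) are longer than all their annotated exons together (3902 and 1501 bases). What was counted in Ndufaf4 and Ndufaf1 is therefore uncertain. Scaled to the cardiac markers, the median of the 4 was -0.092.

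A further 4 factors are listed in the table under older symbols, matched through RefSeq synonyms. Ndufaf6, listed as 2310030N02Rik, stood at 2.93 RPKM (control) and 0.846 RPKM (mutant), a ratio of 0.289 (0.217 to 0.380, from at least 221 and 69 reads). Ndufaf5, listed as 2310003L22Rik, encodes an enzyme that hydroxylates Ndufs7 in human cells and stood at 12.9 and 16.9 RPKM, 1.30-fold higher (1.16 to 1.47). Ndufaf7, listed as 2410091C18Rik, encodes a methyltransferase and stood at 18.4 and 18.5 RPKM, with an interval of 0.974 to 1.05. Ndufaf8, listed as 1810043H04Rik, stood at 0.912 and 1.27 RPKM, with an interval of 1.011 to 1.92. These 4 ranged from the lowest ratio of any complex I gene described here, in Ndufaf6, to 1.39 in Ndufaf8. Both ends lie near the floor: Ndufaf6 reached 1 RPKM only in the control library and Ndufaf8 only in the mutant library.

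Of the other complex I assembly factors in the list, 8 of 12 were found by symbol. Of these 5 were higher and 3 lower, with a median of 0.18, beside 32.9% of all genes higher. Timmdc1, Dmac1 and Dmac2 of the same list, found only under older symbols, are not in that count or median. All of them were lower, with log2 differences of -0.80, -0.32 and -0.11. Foxred1 stood at 13.9 and 22.4 RPKM, 1.61-fold higher (1.57 to 1.65), and Tmem186 at 3.26 and 4.99 RPKM, 1.53-fold higher (1.41 to 1.66). The members of the complex that builds the membrane arm with Ndufaf1 were mixed. Acad9 stood at 16.1 and 12.5 RPKM, a ratio of 0.778 (0.754 to 0.802), Ecsit at 17.6 and 18.8 RPKM (1.07-fold) and Tmem126b at 5.42 and 5.25 RPKM, with an interval of 0.837 to 1.12. Tmem70, which also serves ATP synthase assembly, was 1.28-fold higher (13.2 to 16.8 RPKM), and Aifm1 1.21-fold higher (46.2 to 56.1 RPKM). Nubpl, which delivers iron-sulphur clusters, had a ratio of 0.909 (3.10 to 2.82 RPKM). Timmdc1, listed as 4930455C21Rik, stood at 15.7 and 8.64 RPKM, a ratio of 0.549 (0.517 to 0.582), while Dmac1 and Dmac2, listed as 3110001D03Rik and Atp5sl, had ratios of 0.740 and 0.920.

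The other complexes of the chain were set beside complex I. Complex IV had 13 of 13 genes higher with a median of 0.43, and complex III 8 of 9 with a median of 0.46. Of all genes 32.9% were higher, with a median of -0.18. In these groups Cox6a2, a muscle subunit of cytochrome oxidase, was 1.70-fold higher and Cox6b1 1.47-fold, while Uqcr11 was 1.53-fold and Uqcr10 1.502-fold higher. Complex V had 12 of 15 higher with a median of 0.17, including Atp5d at 1.45-fold and Atp5j at 1.44-fold, and complex II 3 of 4 with a median of 0.030, including Sdhb at 1.29-fold and Sdha at 1.02-fold. The median of complex I lies between those of complexes III and IV and those of complexes II and V, and differences between complexes were not tested. Scaled to the cardiac markers, the medians were -0.26 for complex II, 0.18 for complex III, 0.16 for complex IV and -0.12 for complex V, and scaled to the total RPKM that of complex II was -0.030.

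**Figure D4:**
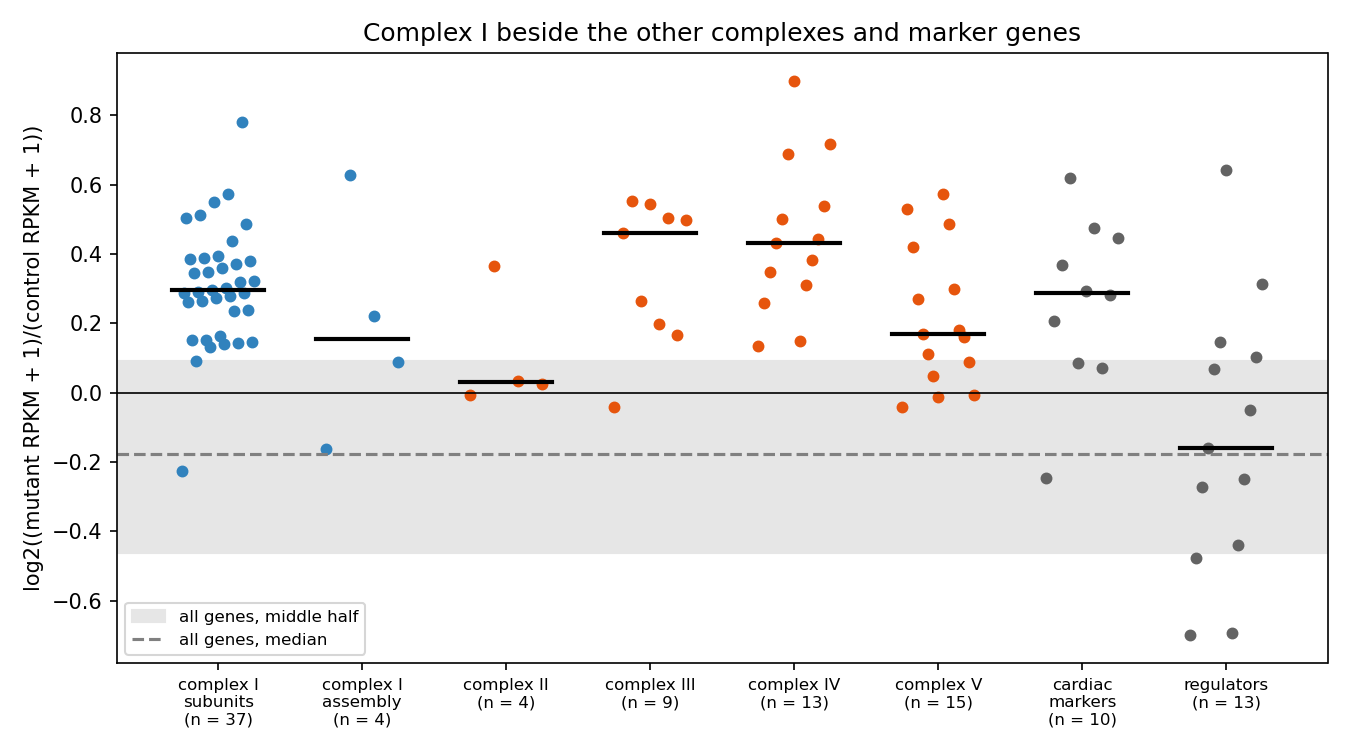
Log2 difference, log2((mutant RPKM + 1)/(control RPKM + 1)), for each gene of complex I, complexes II to V, the cardiac muscle markers and regulators of mitochondrial gene expression, with a black bar at each median. Genes found only under older symbols are not drawn. The grey band is the interquartile range of all 12446 genes and the dashed line their median, -0.18. The medians of the complex I subunits (0.30) and the cardiac markers (0.29) are close in height and lie above the band. So do those of the assembly factors (0.15) and of complexes III (0.46), IV (0.43) and V (0.17).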

How the data were processed

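RNA was measured in 2 libraries, 1 per genotype, by poly(A) capture, a SMARTer cDNA kit and paired 90-base reads, per the labels' protocols. The submitters' processing notes name Trim Galore, FastQC, TopHat2, Bowtie2 and mm9, without versions. Which program built the expression values was not given in the sources used here. Values deposited by the authors were identified as RPKM from their steps: for small RNA genes, value times length gave whole reads to within 0.01 in 284 and 276 of 284 genes, which gave the library totals. Per the file headers, constitutive exons were used for each gene. Whole reads were recovered for 99.1% of genes as the smallest numbers that give both values, so they are minimums. Intervals may be too wide for that reason, and too narrow where reads are PCR copies. The deposited log2 fold change of the authors matches the ratio of mutant to control to within 1.89e-07 and was not used further, nor was the signed fold score deposited by the authors.

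Values were used as deposited, with a pseudocount of 1 for log2 differences, a floor of 1 RPKM and, for a symbol with several entries, the one with the highest mean. Alternatives were other pseudocounts, scalings, floors, thresholds, level bins and means. The values of 1 member are not reported here singly, though group counts and sums include it. The other members are named, with every measured regulator and assembly factor and the 2 genes of each other list with the largest log2 ratio in size at 5 RPKM or more, and the node markers, which were chosen after their values were seen. The members, lists and rules were chosen with earlier results of these data known. Simulated data had 12448 genes, with 200 of those at 5 RPKM or more in the control changed 2-fold and counting error as the sole noise. Past 1.5-fold were 100% of changed genes and 0.11% of unchanged ones. Smaller changes, such as those of most subunits, and changes in lower genes were not simulated. Analyses used Python 3.11.15, pandas 2.3.3 and scipy 1.17.1.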

Additional observations from a re-analysis of the deposited data

How the results depend on the processing

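Scaling to the cardiac muscle markers gave -0.14 for the median of the core N module, -0.26 for complex II and -0.12 for complex V (the lower medians of the other modules and complexes are given above), a ratio of 0.9997 for the summed level of the subunits, 23 subunits higher, 1 at least 25% higher, a subunit median of 0.037, -0.092 for the assembly factors and 0.163 for Isl1. Scaling to the total RPKM put complex II at -0.030. The number of subunits at least 25% higher was 26 when scaled to the median of genes that reached 5 RPKM in each library and 8 with a pseudocount of 5, and it was 1 at 1.5-fold and 0 at 2-fold. A floor of 20 RPKM left 18 subunits, of which 18 were higher and 8 at least 25% higher. It also left 1 assembly factor, Ndufaf1, which was higher, with 0 at least 25% higher. Ndufa12, Ndufb6 and Ndufaf1 reached this floor only in the mutant library. For complex III the mean was 0.35, and a floor of 20 RPKM gave a median of 0.36. A pseudocount of 5 gave medians of 0.30 for complex IV, 0.30 for accessory N and 0.40 for accessory Q. Subtracting 10 level bins gave 0.50 for accessory N, and a floor of 20 RPKM left 1 accessory Q subunit, at 0.24. For the assembly factors, subtracting 10 level bins gave a median of 0.32 and 2 at least 25% higher. The level by length bins gave 2, and adding the factors under older symbols gave 6 higher and 2 at least 25% higher. The last 2 choices, and leaving out overlapping members, were made after seeing the data. The direction of the subunit median held in every alternative run, though only at 0.037 when scaled to the cardiac markers, where the summed level was not higher. No paired analysis was possible because each group has 1 library, and for the same reason no library could be left out.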

Other observations

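Of 13 regulators of mitochondrial gene expression found by symbol, 5 (38.5%) were higher in the mutant library, near the 32.9% of all genes, and 8 were lower. Their median log2 difference was -0.16, near the -0.18 of all genes. Slirp of the same list, found under an older symbol and described below, is not in that count. Ppargc1a and Ppargc1b, coactivators of mitochondrial biogenesis, stood at 21.8 and 27.3 RPKM (1.254-fold higher, interval 1.20 to 1.31) and at 5.47 and 9.10 RPKM (1.66-fold higher, 1.55 to 1.79). Their relative Pprc1 had a ratio of 0.692 (5.75 to 3.98 RPKM). Esrra, the orphan nuclear receptor ERR alpha that Ppargc1a coactivates, stood at 2.36 and 1.08 RPKM, a ratio of 0.457 (0.392 to 0.532). Nrf1 was 1.08-fold higher (6.56 to 7.12 RPKM), and Gabpa and Gabpb1, the subunits of GABP, had ratios of 0.879 and 0.828. Yy1 stood at 2.68 and 3.07 RPKM, with a ratio of 1.14.

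Among genes that serve the mitochondrial genome, which encodes the membrane core of complex I, 3 of 6 (Lrpprc, Polrmt and Tfam) had counting intervals wholly below 1, beside 57.2% of all genes. Lrpprc, which stabilises mitochondrial messenger RNAs, stood at 11.3 RPKM (control) and 6.55 RPKM (mutant), a ratio of 0.581 (0.551 to 0.613). Polrmt, the mitochondrial RNA polymerase gene, had a ratio of 0.692 (0.654 to 0.733) and Tfam, a packaging and transcription factor of the mitochondrial genome, 0.807 (0.757 to 0.861). Tfb1m had an interval of 0.871 to 1.06, and Tfb2m was 1.05-fold higher (1.00 to 1.10). Slirp, the partner of Lrpprc, is listed as 1810035L17Rik and had an interval of 0.994 to 1.24.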
